A study of Mus musculus with 6 samples.

Results

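Nuclear receptors are the 40 genes of the receptor superfamily chosen by symbol from the 21899 genes of a liver expression table, and each of the 40 symbols matched a single row. The rule reads gene symbols alone. The 6 libraries were made from polyA RNA of livers of wild-type mice (strain C57BL6J). Of these, 3 came from mice given a diet with sufficient methionine and choline (MCS) and 3 from mice given a diet lacking both nutrients (MCD), each for 6 weeks. The MCD diet is a mouse model of metabolic dysfunction-associated steatohepatitis (MASH). The sex and age of the mice, the hour of liver collection and whether each library came from a separate mouse are not given in the sources used here, so the p-values given here reflect the spread among these libraries alone, which may be technical.

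Nuclear receptors are transcription factors that bind DNA through a zinc finger domain, and most of them change their activity when a small lipid-soluble ligand enters a pocket in the same protein. Retinoid X receptors (RXR) are the shared partner of the receptors for fatty acids (PPAR), oxysterols (LXR), bile acids (FXR), xenobiotics (CAR and PXR), thyroid hormone and retinoic acid. In liver these receptors control fatty acid oxidation, bile acid synthesis, drug metabolism and the daily rhythm of metabolic genes. Several are drug targets in fatty liver disease.

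Total counts were 16615469 to 21322771 per library, at which 3 counts correspond to 0.104 to 0.227 CPM. CPM here means a gene's count relative to the library total after scaling by trimmed mean of M values (TMM), which sets the bulk of the genes equal between libraries. The liver label was checked against 8 hepatocyte markers, whose summed level was 62960 to 121100 CPM per library. Each change is the log2 ratio of MCD to MCS with its SE, fitted by edgeR's quasi-likelihood method with 3 libraries per diet. A gene passed when its p, adjusted by Benjamini-Hochberg over all 12599 genes tested, was under 0.05. Values in each library are given in the order of replicates 1 to 3.

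In bulk liver, fewer cells of a type and less RNA per cell cannot be told apart, and markers of several cell types moved with the diet. The 8 hepatocyte markers summed to 100100, 101100 and 121100 CPM in the MCS and 83110, 103500 and 62960 CPM in the MCD libraries, and 3 of them fell. All 8 recruited macrophage markers rose, from a summed 63.7 to 90.8 CPM to 774 to 1992 CPM. Of 8 cholangiocyte markers, which share Spp1 with that list, 6 rose (58.8 to 85.9 CPM against 217 to 595 CPM), while 0 of 8 stellate cell and 0 of 8 sinusoidal endothelial markers passed. Stellate markers summed to 216, 214 and 479 CPM on MCS and 495, 257 and 877 CPM on MCD, and sinusoidal endothelial markers to 106, 145 and 427 CPM and 104, 72.7 and 375 CPM. Of 8 Kupffer cell markers 3 rose and 2 fell (421 to 540 against 517 to 854 CPM), and 3 of 6 T and NK cell markers rose (1.84 to 3.70 against 6.38 to 14.1 CPM). T and NK cell markers were so low on MCS that some passed the filter on low counts only with their MCD libraries. A call of such a marker is no support for a rise. The part of the marker shifts in the receptor results was not tested. Replicate 3 of each diet held the highest sinusoidal endothelial and stellate sums of its diet. Without both libraries, a choice made after seeing the data, 2 receptors rose and 7 fell, and 6 of the 13 calls described next remained (Rxra, Ppara, Nr0b2, Thrb, Nr3c2 and Pparg).

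Of the 40 receptors, 36 passed the filter on low counts and 4 did not (Nr2f1, Hnf4g, Vdr and Pgr). Among the 36 tested, 10 fell on the MCD diet, 3 rose and 23 did not pass, with TMM scaling. The 10 that fell were Nr1d1, Nr3c2, Nr0b2, Rxra, Ppara, Nr1i3, Thrb, Nr1h3, Rxrb and Nr2f2, and the 3 that rose were Rarb, Pparg and Nr4a3, the last of which passed the filter through its MCD libraries alone. Calls made up 36.1% of the tested receptors, 27.8% downward and 8.33% upward. Among all 12599 tested genes 24.7% were called, 9.97% downward and 14.8% upward. The 2 diets did not overlap in any of the 13 called receptors. Over all 36 tested receptors, CPM in every MCD library was below every MCS library for 18 (50%) and above for 4 (11.1%). The same shares over all tested genes were 21.3% and 23.9%.

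The direction of the group depended on the scaling. With library size alone, 8 receptors were called higher (Pparg, Rarb, Nr4a3, Nr1d2, Esr1, Nr3c1, Rora and Nr1i2) and 1 lower (Nr1d1), against 43.2% of all tested genes called, 40.4% higher and 2.76% lower. By limma on log2(TPM + 1), TPM being the deposited level per transcript length, 7 receptors were called higher and 1 lower, against 45.3% of all tested genes called, 43.2% higher and 2.1% lower. The median log2 fold change of the 36 receptors was −0.31 with TMM and 0.24 with library size alone. Over all tested genes that median was 0.01 and 0.57, above that of the receptors with either scaling. A change of scaling moves all genes by nearly the same amount, so agreement between the scalings is no separate support. The falls described here are therefore relative to the bulk of the genes. Pparg, Rarb and Nr4a3 were called higher and Nr1d1 lower with both scalings. In the authors' deposited table, whose fold changes follow the TPM, 8 receptors had a false discovery rate under 0.05 upward and 1 downward. Those counts are out of all 40 receptors. Over all 21899 genes of the authors' deposited table the shares were 20.5% and 1.31%. Of these genes 5317 had 0 counts in every library, which lowers both shares. They are thus not comparable with the shares of the 12599 tested genes.

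**Figure D1:**
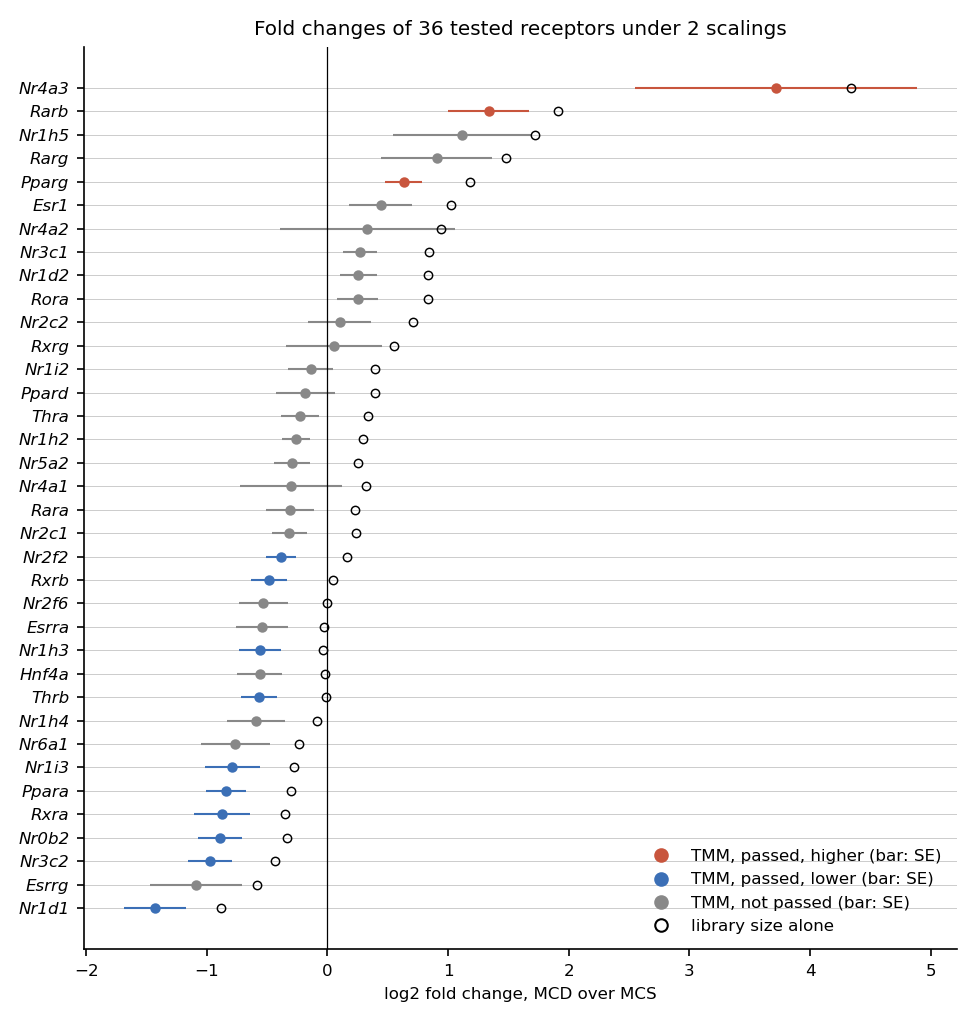
Log2 fold change of MCD over MCS (x axis) for the 36 tested receptors (y axis). Filled points with SE bars are from the TMM-scaled edgeR fit, red where higher, blue where lower and grey where not passed, and open circles are the same fit with library size alone. Every open circle lies to the right of its filled point, and only Nr1d1 was called lower with both scalings.

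Calls also depended on single libraries. Of the 13 called receptors, 4 (Nr1d1, Nr3c2, Ppara and Nr0b2) were called in each of the 6 fits that left out 1 library. The number of receptors that fell was 4, 4 and 6 without MCS replicates 1, 2 and 3 and 4, 15 and 6 without MCD replicates 1, 2 and 3. The number that rose was 0, 1 and 1 without MCS replicates 1, 2 and 3 and 1, 3 and 1 without MCD replicates 1, 2 and 3. The shares of all tested genes called in these fits are not given here, so these swings cannot be called particular to the receptors. MCD replicate 3 held the lowest MCD level of 18 of the 36 tested receptors, 7 of the 10 that fell among them, and the highest MCD level of 13. Of the 3 receptors that rose, 2 were highest there.

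Levels of different receptors were compared with the deposited TPM, which accounts for transcript length. Over all libraries Rxra had the highest mean, at 209 ± 10.9 TPM on MCS and 166 ± 13.3 TPM on MCD (SD, n = 3), although on MCD the mean of Hnf4a was higher. It was followed by Hnf4a (173 ± 4.22 and 185 ± 10.2 TPM), Nr1i3 (139 ± 26.2 and 122 ± 12.5 TPM), Nr1h4 (95.6 ± 19.3 and 97.9 ± 18.2 TPM) and Nr1h3 (79.5 ± 10.6 and 83.9 ± 3.46 TPM). These 5 genes encode the common partner, a hepatocyte identity factor, CAR, FXR and LXR alpha, and made up 58.8% of the summed mean TPM of the 40. On MCS the libraries of Rxra, Hnf4a and Nr1i3 did not overlap, whereas Nr1i3 (110 to 161 TPM), Nr1h4 (78.7 to 117 TPM) and Nr1h3 (71.5 to 91.5 TPM) overlapped with their neighbours. On MCD Rxra (152 to 178 TPM) and Hnf4a (174 to 194 TPM) overlapped. Of the 40 receptors, 19 had a mean above 10 TPM and 7 a mean under 1 TPM. The 40 receptors summed to 1077, 1125 and 1210 TPM in the MCS and 1178, 1119 and 1186 TPM in the MCD libraries, so the groups overlapped on this scale. In TMM-scaled CPM the same sums were 2431 to 2544 on MCS and 1421 to 1863 on MCD, without overlap.

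**Figure D2:**
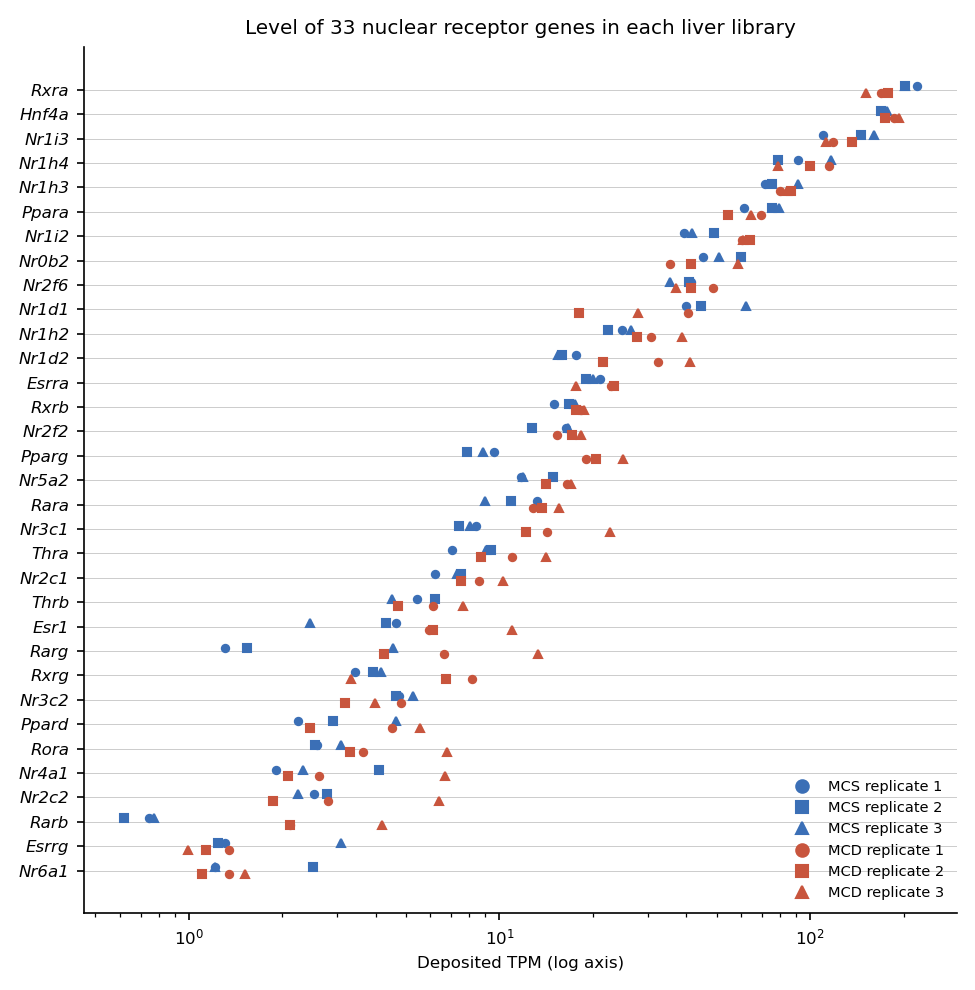
Deposited TPM (x axis, log scale) of the 33 receptors with a mean of at least 1 TPM (y axis, ordered by mean level), with 1 point per library, blue for MCS and red for MCD. Mean levels over all libraries run from 188 TPM for Rxra to 1.49 TPM for Nr6a1.

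Many, but not all, of these receptors bind short DNA sequences built from the half-site AGGTCA. The receptors' own promoters were searched for it because members of the family can regulate each other. The windows ran from 250 bases before to 50 bases after RefSeq start sites (GRCm38.p6), and 37 receptors had 56 such windows. On either strand AGGTCA was in 11 of the 56 windows (19.6%), against 16.3% of 32851 windows in the whole table. The longer form AAAGGTCA, which contains AGGTCA, was in 2 (3.57% against 1.51%), the E-box CACGTG bound by clock factors in 5 (8.93% against 7.15%), and the cAMP response element TGACGTCA in 1 (1.79% against 1.79%). The D-box TTATGTAA and a direct repeat of AGGTCA spaced by 1 base were in 0 of 56 windows (0.938% and 0.0396% of all). These shares are descriptions, and a match is not evidence of binding. Among the called receptors, Rxra, Pparg, Thrb, Nr0b2 and Nr1i3 had a match. Stretches of 120 bases around those matches are shown so that the half-sites and E-boxes can be compared, 5′ to 3′ on the gene's strand (all plus), with the matches in capitals. In Rxra the capitals TGACCT are AGGTCA on the other strand.
Rxra, chr2:27709172-27709291: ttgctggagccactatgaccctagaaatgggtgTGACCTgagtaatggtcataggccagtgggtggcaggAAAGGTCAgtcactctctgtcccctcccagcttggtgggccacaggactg
Pparg, chr6:115361024-115361143: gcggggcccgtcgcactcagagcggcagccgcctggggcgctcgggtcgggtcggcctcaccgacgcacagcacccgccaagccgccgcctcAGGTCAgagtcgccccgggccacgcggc
Pparg, chr6:115362229-115362348: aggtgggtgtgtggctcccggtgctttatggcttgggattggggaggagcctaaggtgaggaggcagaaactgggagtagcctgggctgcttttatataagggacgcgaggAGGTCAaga
Thrb, chr14:17660710-17660829: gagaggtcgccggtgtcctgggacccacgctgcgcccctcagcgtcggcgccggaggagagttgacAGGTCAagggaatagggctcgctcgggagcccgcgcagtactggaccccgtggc
Thrb, chr14:17981394-17981513: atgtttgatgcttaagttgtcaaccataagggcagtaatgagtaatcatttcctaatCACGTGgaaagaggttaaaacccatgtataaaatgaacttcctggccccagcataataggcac
Nr0b2, chr4:133553126-133553245: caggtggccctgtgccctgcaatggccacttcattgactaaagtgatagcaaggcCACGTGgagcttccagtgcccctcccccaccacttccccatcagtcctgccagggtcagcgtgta
Nr1i3, chr1:171213720-171213839: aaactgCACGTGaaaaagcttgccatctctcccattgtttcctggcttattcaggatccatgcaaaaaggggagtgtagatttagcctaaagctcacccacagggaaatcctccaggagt

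Of the 3 RXR genes, Rxra and Rxrb fell on MCD after TMM scaling and Rxrg did not pass. Rxra (ENSMUSG00000015846), the main hepatic form, was at 709, 652 and 582 CPM on MCS and 366, 435 and 260 CPM on MCD. All MCD libraries lay below all MCS libraries, and the gene fell by 0.87 ± 0.23 on the log2 scale (adjusted p = 0.0272), or had a log2 fold change of −0.35 with library size alone (adjusted p = 0.0820). Rxrb (ENSMUSG00000039656), the ubiquitous form, was at 27.3, 31.4 and 29.1 CPM on MCS and 20.7, 24.2 and 17.9 CPM on MCD. It fell less, by 0.49 ± 0.15 (adjusted p = 0.0422), and was at 0.05 with library size alone (adjusted p = 0.762). Rxrg, the form best known from muscle and brain, was low and did not pass (4.14, 4.83 and 4.69 CPM against 6.12, 6.02 and 2.09 CPM; log2 fold change 0.05 ± 0.39, adjusted p = 0.936). The count ratio of Rxra to Rxrb within a library, which no scaling changes, was 25.9, 20.7 and 20 on MCS and 17.7, 18.0 and 14.6 on MCD, without overlap. The call of Rxra was lost without replicate 1 or 2 of MCS and without replicate 1 of MCD (adjusted p from 0.0956 to 0.108). Rxrb was called in 1 of those 6 fits, the one without MCD replicate 2 (adjusted p = 0.0802 to 0.151 in the other 5).

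The 3 PPARs sense fatty acids, and they differed in direction. Ppara (ENSMUSG00000022383), the hepatocyte form that turns on fatty acid oxidation and ketone body synthesis, was at 131, 162 and 156 CPM on MCS and 92.5, 87.7 and 70.5 CPM on MCD. It fell by 0.84 ± 0.17 (adjusted p = 0.00884), and had a log2 fold change of −0.30 with library size alone (adjusted p = 0.117). Pparg (ENSMUSG00000000440), the form that drives lipid storage in adipocytes and is also present in macrophages, was at 13.4, 11.9 and 11.5 CPM on MCS and 16.8, 21.3 and 19.2 CPM on MCD. Every MCD library was above every MCS library, and the gene rose by 0.63 ± 0.15 (adjusted p = 0.0190), or by 1.18 with library size alone (adjusted p = 0.00324). Pparg was not called without MCS replicate 1, 2 or 3 (adjusted p = 0.0549, 0.0834 and 0.0592). Ppard, the broadly expressed form, did not pass (6.14 ± 0.837 against 5.40 ± 0.987 CPM, log2 fold change −0.18 ± 0.24, adjusted p = 0.613, and 0.39 with library size alone). The ratio of Pparg to Ppara counts, free of scaling, was 0.103, 0.0736 and 0.0741 on MCS and 0.181, 0.243 and 0.272 on MCD. The groups could not overlap in this ratio, since every MCD library was above every MCS library for Pparg and below for Ppara. The pair was also chosen after the values were seen. The MCD ratio was 2.78-fold higher on the log scale, the largest shift in favour of Pparg being in MCD replicate 3.

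**Figure D3:**
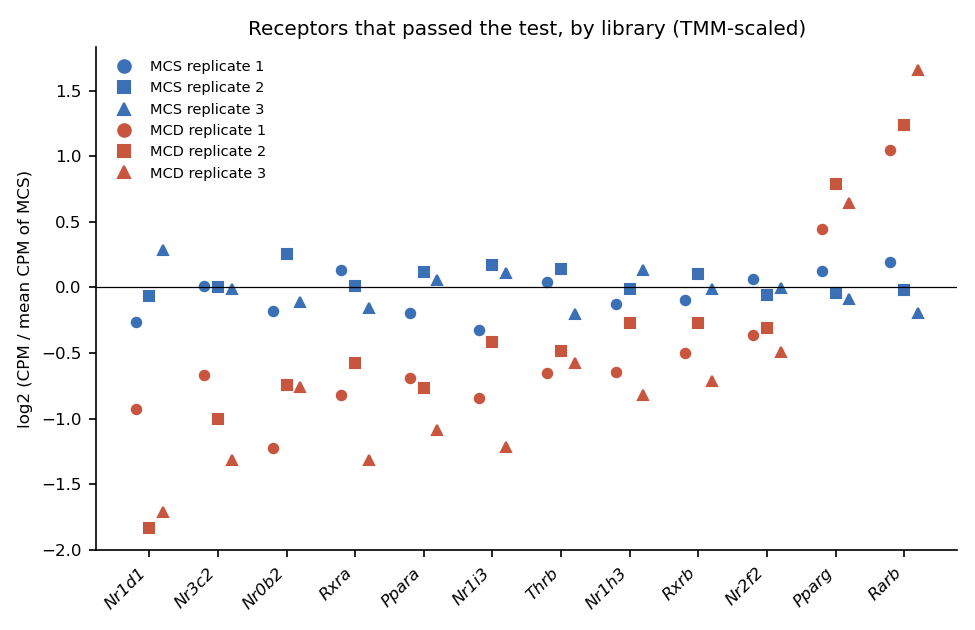
Log2 of CPM over the mean CPM of the MCS libraries (y axis, TMM-scaled) for 12 of the 13 called receptors (x axis), with 1 point per library. Nr4a3 is left out because 2 of its MCS libraries had 0 counts. All MCD points lie below all MCS points for the 10 receptors that fell and above them for Pparg and Rarb.

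Target lists of PPARA and PPARG differed in their counts. For these and each later list, the comparison is the share of all tested genes called, 9.97% lower and 14.8% higher with TMM. With library size alone those shares were 2.76% and 40.4%. Of 28 tested PPARA targets 16 fell, 3 rose and 9 did not pass, with a median log2 fold change of −0.77 (−0.24 with library size alone, where 11 fell and 6 rose). Cyp4a32 and Acot1, a fatty acid hydroxylase and an acyl-CoA thioesterase with near copies in the genome, fell by 1.97 ± 0.16 and 2.50 ± 0.22 (adjusted p = 0.000235 and 0.000397). Pdk4, which blocks pyruvate dehydrogenase and is shared with the ERR targets, rose from 4.53 ± 1.81 to 85.1 ± 42.4 CPM (4.24 ± 0.46, adjusted p = 0.00161). Of 8 tested PPARG targets 4 rose, 1 fell and 3 did not pass, with a median of 1.62 (2.19 with library size alone, where 5 rose and 1 fell). The lipid droplet coat protein Plin4 and the fatty acid translocase Cd36 rose by 2.33 ± 0.21 and 2.63 ± 0.29 (adjusted p = 0.000424 and 0.000855), and the lipase inhibitor G0s2 fell by 2.45 ± 0.30 (adjusted p = 0.00145). The adipocyte markers Lep and Retn had 0 counts in every library and Adipoq and Plin1 at most 3, while Cidec, on the same marker list, rose from 16.7 ± 8.48 to 85.5 ± 7.91 CPM (adjusted p = 0.00252). PPARA targets that fell numbered 10, 9 and 8 without MCS replicate 1, MCS replicate 2 and MCD replicate 1, and PPARG targets that fell numbered 2 without MCD replicate 2.

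Of the sterol and bile acid receptors, Nr1h3 and Nr0b2 fell after TMM scaling. Nr1h3 (ENSMUSG00000002108), LXR alpha, which senses oxysterols and is present in hepatocytes and macrophages, was at 94.0, 102 and 112 CPM on MCS and 65.9, 85.3 and 58.3 CPM on MCD. It fell by 0.56 ± 0.17 (adjusted p = 0.0434), and stood at −0.04 with library size alone (adjusted p = 0.837). Its relative Nr1h2, LXR beta, did not pass (34.4 ± 1.51 against 28.7 ± 1.53 CPM, −0.26 ± 0.12, adjusted p = 0.139), although its diets did not overlap. Nr1h4, FXR, the bile acid sensor, was at 134, 118 and 160 CPM on MCS and 105, 109 and 60.2 CPM on MCD, and did not pass (−0.59 ± 0.24, adjusted p = 0.0981; 0.0411 without MCD replicate 2). Nr0b2 (ENSMUSG00000037583), SHP, an FXR-induced repressor that has no DNA-binding domain, was at 38.0, 51.5 and 39.99 CPM on MCS and 18.4, 25.8 and 25.5 CPM on MCD. All MCD libraries were below all MCS libraries, and Nr0b2 fell by 0.89 ± 0.18 (adjusted p = 0.00971; log2 fold change −0.33 with library size alone, adjusted p = 0.201). The count ratio of Nr0b2 to Nr1h4 overlapped between the diets (0.322 ± 0.0989 against 0.279 ± 0.129), as did that of Nr1h4 to Nr1h3 (1.34 ± 0.154 against 1.301 ± 0.277). Nr1h5, a lanosterol-responsive FXR relative, was near 1 CPM and did not pass (0.645 ± 0.320 against 1.37 ± 0.667 CPM, 1.11 ± 0.57, adjusted p = 0.182). Nr1h3 was not called in 5 of the 6 fits without a library (all but the one without MCD replicate 2, adjusted p = 0.0769 to 0.155).

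Among 15 tested LXR targets, Nr1h3 itself included, 4 fell, 3 rose and 8 did not pass (median −0.43, or 0.08 with library size alone, where 1 fell and 6 rose). The part of the LXR targets that rose was near that of all tested genes, 14.8% with TMM and 40.4% with library size alone. The sterol exporter Abcg8 and the lipogenic factor Srebf1 fell by 0.85 ± 0.20 and 0.84 ± 0.21 (adjusted p = 0.0188 and 0.0199; −0.33 and −0.31 with library size alone). Lipoprotein lipase, Lpl, a gene of macrophages more than of adult hepatocytes, rose from 8.75 ± 0.566 to 157 ± 90.1 CPM (4.16 ± 0.41, adjusted p = 0.000998). Of 14 tested FXR targets and bile acid genes 6 fell, Nr0b2 among them, 0 rose and 8 did not pass (median −0.55, or −0.01 with library size alone, where 5 fell and 2 rose). This list mixes genes that FXR induces with genes of bile acid synthesis and uptake, which need not move the same way. Its count and median are therefore no measure of FXR activity. Klb, the hepatocyte co-receptor for FGF15 and FGF21, and the bile acid uptake transporter Slc10a1 fell by 1.35 ± 0.16 and 1.83 ± 0.33 (adjusted p = 0.00110 and 0.00662). LXR targets that fell numbered 0 and 1 without MCS replicates 1 and 2, and 0 and 2 without MCD replicates 1 and 3. A gene of the FXR and bile acid list rose without MCD replicate 2.

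CAR and PXR, the xenobiotic receptors, moved unequally. Nr1i3 (ENSMUSG00000005677), CAR, was at 136, 192 and 184 CPM on MCS and 94.9, 128 and 73.6 CPM on MCD, and fell by 0.79 ± 0.23 (adjusted p = 0.0367; −0.27 with library size alone, adjusted p = 0.221). Nr1i2, PXR, did not pass and its diets overlapped, at 74.4, 95.3 and 73.6 CPM and 71.0, 89.9 and 59.8 CPM (−0.14 ± 0.19, adjusted p = 0.611), but with library size alone it was called higher (0.39, adjusted p = 0.0422). The count ratio of Nr1i3 to Nr1i2 was 1.83, 2.02 and 2.50 on MCS and 1.34, 1.43 and 1.23 on MCD, without overlap. Nr1i3 was called in 1 of the 6 fits that left out a library, the one without MCD replicate 2 (adjusted p = 0.0568 to 0.131 in the other 5). Its exons share 2160 bases with Tomm40l on the opposite strand in the GENCODE M21 annotation, and the labels do not say that strand was kept, so some reads of either gene could be assigned to the other. Tomm40l was at 16.2, 15.9 and 20.3 CPM on MCS and 19.0, 15.7 and 15.3 CPM on MCD, and did not pass. Of 24 tested CAR and PXR targets 8 rose, 4 fell and 12 did not pass (median 0.42, or 0.95 with library size alone, where 12 rose and 3 fell). The glutathione transferases Gsta1 and Gstm3, which have near copies and also respond to NRF2, rose by 6.78 ± 0.36 and 5.44 ± 0.33 (adjusted p = 5.59e-05 and 8.67e-05). Cyp2c29, a drug-metabolising cytochrome of the same target list with close relatives, fell by 3.70 ± 0.28 (adjusted p = 0.000193). The targets that rose numbered 5 without MCS replicate 1 or MCD replicate 1, and those that fell numbered 8 without MCD replicate 2.

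**Figure D4:**
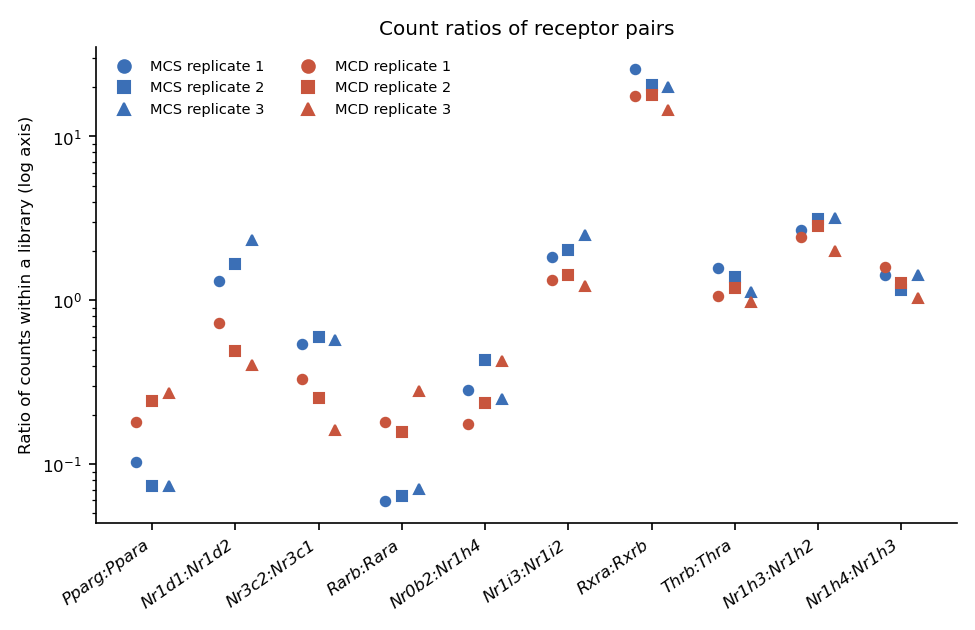
Ratio of the counts of 2 receptors within each library (y axis, log scale) for 10 pairs (x axis), with 1 point per library, blue for MCS and red for MCD. The diets do not overlap for Pparg to Ppara, Nr1d1 to Nr1d2, Nr3c2 to Nr3c1, Rarb to Rara, Nr1i3 to Nr1i2 and Rxra to Rxrb, and overlap for the other 4 pairs. The pairs were chosen after the values were seen. For Pparg to Ppara and Nr3c2 to Nr3c1 the lack of overlap follows from the CPM of each gene.

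The REV-ERB receptors are repressors of the circadian clock whose transcripts swing strongly over the day, and they parted between the diets. Nr1d1 (ENSMUSG00000020889), REV-ERB alpha, was at 80.1, 91.9 and 117 CPM on MCS and 50.8, 27.1 and 29.4 CPM on MCD. This was the largest fall among the called receptors, 1.43 ± 0.26 on the log2 scale (adjusted p = 0.00632), and it remained a call with library size alone (−0.88, adjusted p = 0.0404) and on the log2(TPM + 1) scale (−0.78, adjusted p = 0.0473). Nr1d2, REV-ERB beta, did not pass (60.8, 54.9 and 50.1 CPM against 69.8, 55.5 and 72.9 CPM, 0.26 ± 0.15, adjusted p = 0.238), but was called higher with library size alone (0.83, adjusted p = 0.0162). The count ratio of Nr1d1 to Nr1d2 was 1.32, 1.67 and 2.34 on MCS and 0.728, 0.489 and 0.403 on MCD, a 3.30-fold difference on the log scale without overlap. Rora, the activator that competes with REV-ERB for the same sites, was at 17.7 ± 0.786 and 21.0 ± 4.44 CPM (0.25 ± 0.17, adjusted p = 0.308; 0.83 with library size alone, adjusted p = 0.0296). Leaving out replicate 3 of both diets, a choice made after seeing the data, ended the call of Nr1d1 (−1.14, adjusted p = 0.0701).

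Of 15 tested clock partners of these receptors 5 fell, 0 rose and 10 did not pass (median −0.35, or 0.20 with library size alone, where 2 fell and 3 rose). The fatty acid elongase Elovl3, whose transcript cycles in liver, fell from 79.9 ± 11.9 to 10.7 ± 3.92 CPM (2.91 ± 0.26 lower on the log2 scale, adjusted p = 0.000397), and the repressor Nfil3 from 22.5 ± 7.28 to 6.95 ± 2.85 CPM (adjusted p = 0.00810). Arntl, the BMAL1 gene that REV-ERB represses, was at 1.38, 1.36 and 0.717 CPM and 1.03, 1.49 and 2.54 CPM and did not pass (0.56 ± 0.49, adjusted p = 0.429). Clock partners that fell numbered 2, 2, 3 and 3 without MCS replicates 1, 2 and 3 and MCD replicate 1, and 1 rose without MCD replicate 2. The hour of collection is not given in the labels, and its part in these values was not tested. Nr1d1 exons share 263 bases with those of Thra on the opposite strand, and Thra was at 12.2, 14.8 and 14.5 CPM on MCS and 11.2, 11.3 and 12.96 CPM on MCD (−0.23 ± 0.16, adjusted p = 0.314).

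Among the steroid receptors, the mineralocorticoid receptor stood out from the glucocorticoid receptor. Nr3c2 (ENSMUSG00000031618), the mineralocorticoid receptor, was at 20.08, 20.02 and 19.8 CPM on MCS and 12.6, 9.95 and 8.01 CPM on MCD. It fell by 0.97 ± 0.18 (adjusted p = 0.00749), with a log2 fold change of −0.43 with library size alone (adjusted p = 0.0987). Nr3c1, the glucocorticoid receptor that governs gluconeogenic and anti-inflammatory genes, was higher in every MCD library (38.3, 39.2 and 49.6 CPM) than in any MCS library (37.2, 33.7 and 34.5 CPM). It did not pass (0.27 ± 0.14, adjusted p = 0.189) but was called with library size alone (0.84, adjusted p = 0.0160). The ratio of Nr3c2 to Nr3c1 counts was 0.540, 0.594 and 0.574 on MCS and 0.329, 0.254 and 0.162 on MCD. Its lack of overlap follows from the CPM of the 2 genes, which parted in opposite directions. Esr1, the estrogen receptor of hepatocytes, overlapped between the diets (20.2, 17.7 and 10.04 CPM against 17.3, 21.1 and 26.5 CPM, 0.44 ± 0.26, adjusted p = 0.245; 1.03 with library size alone, adjusted p = 0.0292). The progesterone receptor Pgr had 1 count in all 6 libraries together. Of 16 tested glucocorticoid targets 5 fell, 0 rose and 11 did not pass (median −0.77, or −0.24 with library size alone, where 3 fell and 3 rose). The tyrosine catabolic enzyme Tat and the gluconeogenic enzyme Pck1 fell by 1.39 ± 0.29 and 1.33 ± 0.28 (adjusted p = 0.0107 and 0.0110). Glucocorticoid targets that fell numbered 2 and 0 without MCS replicates 1 and 2, and 1, 8 and 3 without MCD replicates 1, 2 and 3, and 1 rose without MCS replicate 3, MCD replicate 2 or MCD replicate 3.

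Retinoic acid receptors bind the vitamin A derivative that stellate cells and hepatocytes handle. Rarb (ENSMUSG00000017491), itself a target gene of retinoic acid, was at 1.67, 1.44 and 1.27 CPM on MCS and 3.01, 3.44 and 4.60 CPM on MCD, from 19 to 29 and 67 to 132 counts. It rose by 1.34 ± 0.33 (adjusted p = 0.0217; 1.91 with library size alone, adjusted p = 0.00907). Rara, the most abundant form, did not pass (22.9 ± 5.13 against 18.4 ± 3.08 CPM, −0.31 ± 0.20, adjusted p = 0.270). Rarg was at 2.76, 3.17 and 8.77 CPM and 8.36, 6.47 and 12.8 CPM, so MCS replicate 3 overlapped the MCD libraries, and it did not pass (0.91 ± 0.46, adjusted p = 0.183). Rarg was called higher without MCS replicate 3 (1.63, adjusted p = 0.0220), without replicate 3 of both diets (1.32, adjusted p = 0.00561) and on log2(TPM + 1) (1.38, adjusted p = 0.0324). The ratio of Rarb to Rara counts was 0.0593, 0.0636 and 0.0710 on MCS and 0.1796, 0.156 and 0.278 on MCD, 3.08-fold higher on the log scale and without overlap. Rarb is uncertain as a single gene, since its exons share 1793 bases with Top2b on the opposite strand. Top2b was at 14.6, 15.3 and 16.5 CPM on MCS and 16.5, 15.3 and 28.9 CPM on MCD and did not pass (adjusted p = 0.260). Rarb was called in 1 of the 6 fits without a library, the one without MCD replicate 2 (adjusted p = 0.0511 to 0.0754 in the other 5). The stellate cell marker Lrat, which stores retinol as esters, was at 5.81, 5.67 and 10.7 CPM on MCS and 22.9, 7.92 and 29.2 CPM on MCD (1.44 ± 0.49, adjusted p = 0.0714), and its part in the Rarb result was not tested.

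Of 9 tested retinoic acid targets, Rarb included, 4 rose, 1 fell and 4 did not pass (median 0.90, or 1.47 with library size alone, where 6 rose and 0 fell). Tgm2, a transglutaminase, rose from 160 ± 4.76 to 299 ± 23.0 CPM (adjusted p = 0.00540). Rarres1 fell by 0.81 ± 0.25 (adjusted p = 0.0442), or had −0.28 with library size alone. The targets that rose numbered 2 without MCS replicate 2 or MCD replicate 1, and the fall of Rarres1 was not called without MCS replicate 1, 2 or 3 or MCD replicate 1, fits with 0 targets falling.

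Of the thyroid hormone receptors, Thrb (ENSMUSG00000021779), the main form in liver, was at 19.3, 20.6 and 16.3 CPM on MCS and 11.9, 13.4 and 12.6 CPM on MCD. It fell by 0.56 ± 0.15 (adjusted p = 0.0265), and was at −0.01 with library size alone (adjusted p = 0.964). Thrb lost its call without replicate 1 or 2 of MCS and without replicate 1 of MCD (adjusted p from 0.0960 to 0.112). Ratios of Thrb to Thra counts overlapped between the diets (1.57, 1.39 and 1.12 against 1.06, 1.19 and 0.970). Of 10 tested thyroid hormone targets 4 fell, 1 rose and 5 did not pass (median −0.65, or −0.13 with library size alone, where 2 fell and 2 rose). The lipogenic malic enzyme Me1 fell by 1.26 ± 0.16 (adjusted p = 0.00145), as did Pck1, also a glucocorticoid target. The corepressor Hr rose from 0.505 ± 0.314 to 3.81 ± 0.981 CPM (adjusted p = 0.00501). Hr did not pass the filter on low counts through its MCS libraries alone, so its call is no support for a rise. The targets that fell numbered 2, 1 and 1 without MCS replicate 1, MCS replicate 2 and MCD replicate 1.

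Orphan receptors of hepatocyte identity and energy metabolism mostly did not pass. Hnf4a, which maintains the hepatocyte programme, was at 552, 561 and 536 CPM on MCS and 374, 417 and 326 CPM on MCD, without overlap, and did not pass (−0.56 ± 0.18, adjusted p = 0.0543; −0.02 with library size alone). Hnf4a was called lower by DESeq2 (adjusted p = 0.00215), without MCD replicate 2 (0.0299) and without replicate 3 of both diets (0.0437). Nr2f2 (ENSMUSG00000030551), COUP-TFII, a factor of venous endothelium and mesenchyme as well as hepatocytes, was at 27.9, 25.5 and 26.5 CPM on MCS and 20.7, 21.5 and 19.0 CPM on MCD. Its call was the weakest of the 10 falls (−0.38 ± 0.12, adjusted p = 0.0496; 0.16 with library size alone) and stood in 1 of the 6 fits without a library, the one without MCD replicate 2 (adjusted p = 0.0941 to 0.172 in the other 5). Nr2f2 was also not called without a filter, by DESeq2 or by limma-voom (adjusted p = 0.0764, 0.0699 and 0.0581). Nr5a2, LRH-1, which supports bile acid synthesis genes, did not pass (37.5 ± 5.12 against 30.6 ± 3.69 CPM, −0.29 ± 0.15, adjusted p = 0.183). Neither Esrrg nor Esrra, estrogen-related receptors that act on mitochondrial genes, passed (−1.09 ± 0.38, adjusted p = 0.0662, and −0.54 ± 0.22, adjusted p = 0.0983). Both Esrrg and Esrra were lower in every MCD than in any MCS library, at 3.80 to 8.77 against 1.88 to 3.30 CPM for Esrrg and 31.1 to 35.1 against 15.2 to 29.1 CPM for Esrra. Esrrg was called lower by DESeq2 (adjusted p = 0.0348), and both were without MCD replicate 2 (0.0422 and 0.0119). Nr2f6, Nr6a1 and Nr2c1 also did not overlap between the diets and did not pass (−0.53, −0.76 and −0.32, adjusted p = 0.0853, 0.0789 and 0.139), and Nr2c2 overlapped (0.10, adjusted p = 0.804). Nr2f6 was called lower without MCD replicate 2 and without replicate 3 of both diets (adjusted p = 0.0383 and 0.0154). Exons of Esrra, Nr2f6 and Nr2c2 also overlap a gene on the opposite strand (Trmt112, Ocel1 and Mrps25). Those of Nr3c2, a called receptor, share 155 bases with the noncoding gene Gm10649 on the opposite strand. Rora shares 82 exon bases with the antisense gene Gm15511, and Rarb 227 with the antisense gene Gm48162.

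Of 16 tested HNF4A targets 8 fell, 0 rose and 8 did not pass (median −0.72, or −0.20 with library size alone, where 6 fell and 2 rose). Cyp2c29 was among them, and the carboxylesterase Ces3a fell from 2856 ± 277 to 1105 ± 154 CPM (1.37 ± 0.24 lower on the log2 scale, adjusted p = 0.00552). Those that fell numbered 3, 3 and 5 without MCS replicates 1, 2 and 3 and 4 without MCD replicate 1. Of 13 tested ERR targets 1 rose, Pdk4, and 12 did not pass (median −0.24, or 0.27 with library size alone, where 5 rose), and 2 rose without MCD replicate 3 and 2 fell without MCD replicate 2. Of 20 tested coregulators, the proteins that receptors recruit to activate or repress genes, 2 rose, 0 fell and 18 did not pass (median 0.05). With library size alone 10 were called higher and 0 lower (median 0.62). Among all tested genes 14.8% were called higher with TMM and 40.4% with library size alone, with medians of 0.01 and 0.57, near those of the coregulators. Ncoa7 rose from 0.564 ± 0.110 to 3.24 ± 2.19 CPM (adjusted p = 0.0145). Its MCS libraries alone would not have taken Ncoa7 past the filter on low counts, so this call is no support for a rise. Nrip1, a corepressor, rose from 8.38 ± 0.318 to 13.7 ± 4.14 CPM (adjusted p = 0.0477). The coregulators that rose numbered 0 without MCS replicate 1, 1 without MCS replicate 2 or 3, and 1 without MCD replicate 1 or 3.

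**Figure D5:**
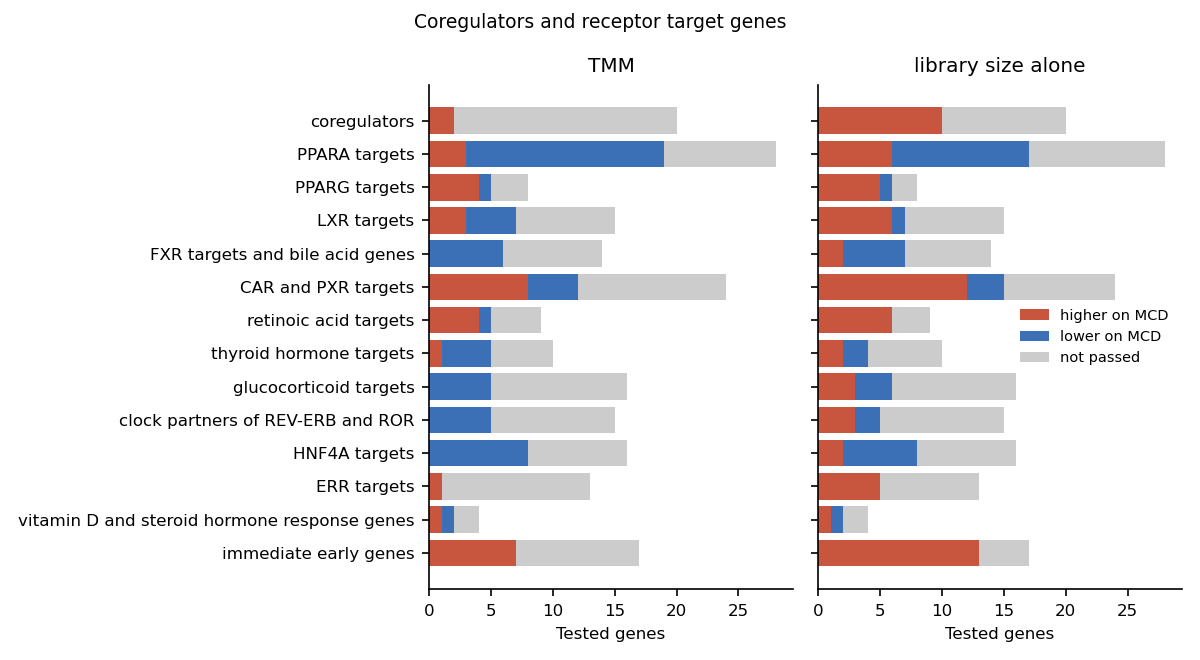
Number of tested genes (x axis) higher, lower or not passed on MCD in each list of coregulators and receptor target genes (y axis), with TMM scaling (left) and library size alone (right). PPARA targets hold the most falls with TMM (16 of 28), and more genes are higher with library size alone, as among all tested genes (40.4% against 14.8%).

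The NR4A receptors are immediate early genes that need no ligand and are induced within minutes of a stimulus. Nr4a3 (ENSMUSG00000028341) had 0, 4 and 0 counts on MCS and 11, 15 and 69 counts on MCD, or 0, 0.302 and 0 CPM against 0.495, 0.679 and 2.40 CPM. Most of its counts were in MCD replicate 3, and its call (adjusted p = 0.0470) rests on these few counts. Nr4a3 passed the filter on low counts through the MCD libraries alone, so its call is no support for a rise among the receptors, and no fold is given against MCS libraries near 0. Nr4a3 lost its call without replicate 1 or 3 of either diet (adjusted p from 0.0701 to 0.150). Nr4a1 and Nr4a2 did not pass and overlapped between the diets, at 3.51, 7.71 and 4.03 CPM against 3.01, 2.85 and 6.37 CPM for Nr4a1 (−0.30 ± 0.42, adjusted p = 0.629). Nr4a2 was at 0.522 ± 0.465 and 0.626 ± 0.306 CPM (adjusted p = 0.765). Of 17 tested immediate early genes outside the family 7 rose, 0 fell and 10 did not pass (median 1.65, or 2.26 with library size alone, where 13 rose). Myc and Klf6 rose by 2.67 ± 0.25 and 3.002 ± 0.296 (adjusted p = 0.000427 and 0.000601).

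The 4 receptors that did not enter the test had at most 27 counts in any library. Vdr, the vitamin D receptor found in stellate cells and bile duct cells rather than hepatocytes, had 0, 1 and 0 counts on MCS and 7, 1 and 9 counts on MCD. Nr2f1 had 4, 6 and 27 counts and 0, 1 and 25 counts, with the highest count of each diet in replicate 3. Hnf4g had 0, 4 and 6 counts and 9, 3 and 8 counts, and Pgr was counted in MCS replicate 3 alone. Of 4 tested genes that respond to vitamin D or steroid hormones, Greb1 rose and Lifr fell. Greb1 had 6 counts on MCS, so it passed the filter on low counts through its MCD libraries alone and its call is no support for a rise. Greb1 was not called without MCS replicate 1, 2 or 3 or MCD replicate 1. Lifr, a cytokine receptor chain, went from 160 ± 35.7 to 53.9 ± 3.72 CPM (1.57 ± 0.19 lower on the log2 scale, adjusted p = 0.00128). Of 9 nuclear receptors outside the 40, 3 were tested and did not pass, 1 of them being called lower without MCD replicate 2.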

How the data were processed

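Liver polyA RNA was sequenced in 6 libraries grouped by the diet in their titles. The submitters' processing notes name RSEM, HISAT2 2.1.0, Bowtie2 2.2.8, fastp 0.18.0, StringTie 1.3.1 and the GRCm39 build, without their order or roles. The deposited estimated counts are whole numbers, and 64 of them are 0 beside a TPM above 0, so they were taken as rounded. TPM is as deposited by the authors, per the file headers. The authors' log2 fold change, p-value and FDR columns are deposited with no test named.

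Estimated counts were tested with edgeR 4.0.16 (R 4.3.3): filterByExpr with a minimum count of 10 kept 12599 of 21899 genes, followed by TMM scaling and a robust quasi-likelihood fit with diet as its only term. Each SE was obtained from the fold change and its F statistic. TMM factors were 0.797 to 0.873 on MCS and 1.04 to 1.41 on MCD. Alternatives were library size alone, DESeq2 size factors, no filter, DESeq2 1.42.0, limma-voom and limma 3.58.1 on log2(TPM + 1) and log2(TPM + 0.1), a replicate block, and each library left out. The floor of 3 counts covers counting error only.

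The receptors, gene lists and naming rule were chosen with earlier results of these data known. The rule describes every called receptor by library and, per list, the 2 called genes of smallest p in the main direction and 1 in the other. Some genes this rule names are not reported here. The ratios of receptor counts were chosen after the values were seen; with 3 libraries per diet an exact permutation test cannot go below p = 0.10, so none is given. Gene overlaps come from GENCODE M21 (GRCm38), another build than the counts, and were used only for which genes overlap. Protein sequences were not used here. Replicates differed beyond sampling noise (chi-square over its degrees of freedom was 14.5 to 162). The edgeR fit was tested on simulated data. Library totals were 16615469 to 21322771.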

Additional observations from a re-analysis of the deposited data

How the results depend on the processing

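Receptors that rose and fell numbered 3 and 10 with TMM, 3 and 10 with DESeq2 size factors, 3 and 9 without a filter or by limma-voom, 3 and 11 by DESeq2, and 2 and 7 without replicate 3 of both diets. They numbered 8 and 1 with library size alone, 7 and 1 on log2(TPM + 1) and 8 and 1 on log2(TPM + 0.1). With 1 library left out, 0 to 3 rose and 4 to 15 fell, the shares of all tested genes in those fits not being given. With a replicate block 3 rose and 10 fell, 11 of them among the 13 calls without it: Nr2f2 and Nr4a3 were not called (adjusted p = 0.0863 and 0.0515), and Rarg and Nr2f6 were (0.0267 and 0.0255). Deviations of same-numbered libraries from their diet's mean correlated at 0.063, 0.147 and 0.246 across genes. Each MCD library correlated best with the MCS library of its number, although MCS replicate 1 correlated better with MCD replicate 2 (0.132). These values do not settle whether the numbers pair the libraries. The main fit has diet as its only term, and the replicate block is given as an alternative. Of 540 refitted receptor fold changes 394 kept direction and side of the threshold and 53 changed sign. The 394 include receptors not called in the main fit that stayed uncalled, so they do not measure how well the 13 calls held. Each of the 13 called receptors was refitted 6 times without a library and in 9 other settings. Among these refits the call was lost in 78, 10 of them with a change of sign. Among refits of the 23 receptors not called, a call was gained in 28, 3 of them with a change of sign. With library size alone the signs of Nr1i2 (0.39), Nr1h2 (0.29), Rxrb (0.05), Nr2f2 (0.16), Nr5a2 (0.25), Rara (0.23), Thra (0.33), Nr2c1 (0.24), Ppard (0.39) and Nr4a1 (0.32) turned. On log2(TPM + 1) and log2(TPM + 0.1) those of Hnf4a (0.10 and 0.10), Nr1h4 (0.04 and 0.04), Nr1h3 (0.08 and 0.08), Nr1i2 (0.51 and 0.51), Nr2f6 (0.11 and 0.11), Nr1h2 (0.38 and 0.39), Esrra (0.08 and 0.08), Rxrb (0.14 and 0.15), Nr2f2 (0.15 and 0.16), Nr5a2 (0.29 and 0.31), Rara (0.33 and 0.36), Thra (0.35 and 0.38), Nr2c1 (0.29 and 0.32), Thrb (0.16 and 0.18), Ppard (0.27 and 0.33) and Nr4a1 (0.26 and 0.32) turned. Rxrg turned by limma-voom (−0.17) and with a replicate block (−0.07), and Nr2c2 and Nr4a2 without replicate 3 of both diets (−0.31 and −0.52), an alternative chosen after seeing the data. With 1 library left out, Rxrg spanned −0.18 to 0.42, Nr2c2 −0.23 to 0.26, Nr4a1 −0.78 to 0.11 and Nr4a2 −0.14 to 1.28. Library size alone does not set the bulk of genes equal and moved the median of all tested genes from 0.01 to 0.57. The cause of the other changes was not tested. Receptors below about 1 CPM rest on few counts.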
